A study of Rattus norvegicus with 6 samples.

Results

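The Rab GTPases and SNAREs of vesicle traffic were examined in the inner medulla of the rat kidney, as the 89 genes whose single symbol in the array's annotation began with Rab, Vamp, Stx, Snap, Stxbp or Vti1 in the numbered form of these families. They stood among 14168 genes with a single symbol, and where a gene had several probe sets the one with the highest average signal was read. The 89 comprised 54 Rab GTPases, 7 Rab partners (effectors and regulators whose symbols begin with a Rab name) and 28 genes on the SNARE side. The rule also took in Snap91, which encodes a clathrin adaptor of endocytosis and no SNARE. Another 17 protein-coding genes of RefSeq match the same symbol patterns and were not analysed here.

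The tissue came from male Sprague-Dawley rats of 200 to 250 g, whose age the labels do not give, and each of 3 groups had 2 Affymetrix arrays. Vehicle animals received saline at 1 µl/h for 5 d from osmotic minipumps under the skin. In the second group the pumps delivered dDAVP, a synthetic vasopressin that acts on the V2 receptor, at 40 ng/h over the same time. In the withdrawal group the same infusion was ended by taking out the pump, and tissue was collected 3 h later. That removal was done under light enflurane anaesthesia, so the end of the infusion and the anaesthesia cannot be told apart. Whether each array holds a separate animal is not stated in the labels, so the p-values describe only the spread between these arrays. The tissue holds many cell types, and fewer cells of a type cannot be told apart from less RNA per cell.

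Rab GTPases are small switches that, when bound to GTP, sit on a particular membrane and recruit the motors, tethers and adaptors that move and dock its vesicles. SNAREs then fuse the membranes: a vesicle SNARE such as a Vamp protein pairs with a syntaxin and a SNAP protein on the target, while syntaxin binding proteins control which syntaxins are free to pair. In the principal cells of the collecting duct this machinery carries the water channel aquaporin-2 (Aqp2) to the apical membrane when vasopressin raises cAMP, and takes it back through endosomes when the hormone goes. Much of this control acts on proteins already made, and the arrays measured mRNA only.

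No member passed the test in any comparison. limma, a moderated linear model fitted to all genes, gave 0 of 89 members at a Benjamini-Hochberg adjusted p under 0.05 between dDAVP and vehicle, between withdrawal and dDAVP, and between withdrawal and vehicle. The moderated F-test over the 3 groups also gave 0 of 89. Over all 14168 genes the share called was 0% in each of the 3 comparisons and 0% in the F-test. The smallest adjusted p of a member was 0.549, 0.26 and 0.995 in the 3 comparisons and 0.489 in the F-test. At an unadjusted p under 0.05, dDAVP against vehicle held 0 higher and 5 lower members (5.62%), beside 0.572% and 6.85% of all genes. Withdrawal against dDAVP held 6 and 1 (6.74% and 1.12%), beside 17.3% and 1.64%. Withdrawal against vehicle held 0 and 2 (2.25%), beside 0.642% and 1.14%. These members are named below as descriptions. No member was 1.5-fold apart in any comparison, against 0.466%, 1.76% and 1.07% of all genes, and the largest difference was 1.39-fold. The 95% confidence intervals of the members reached a median of 0.31 log2 units to either side, which sets the precision of single members.

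The 6 arrays differed in level. Their median intensities ran from 156.1 to 182.1, and both dDAVP arrays were the lowest, at 156.1 and 165.1. Over all genes the median difference was -0.11 log2 units under dDAVP relative to vehicle, 0.14 after withdrawal relative to dDAVP, and 0.03 after withdrawal relative to vehicle, and the members are set beside these shifts below. Vehicle replicate 1 and dDAVP replicate 2 stood apart from the other 4 arrays, so some medians are given with and without this pair. All 8 principal cell markers were measured, with summed intensities of 28926 and 32577 in vehicle, 32705 and 30084 under dDAVP, and 33020 and 29129 after withdrawal. Aqp2 lay between 13.14 and 13.40 log2 units on the 6 arrays, and its dDAVP minus vehicle difference was 0.15 ± 0.10 (SE). The 4 proximal tubule markers, which mark cortex, summed to 509 to 655. Distance above background is unknown, since detection calls were not used here.

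**Figure D1:**
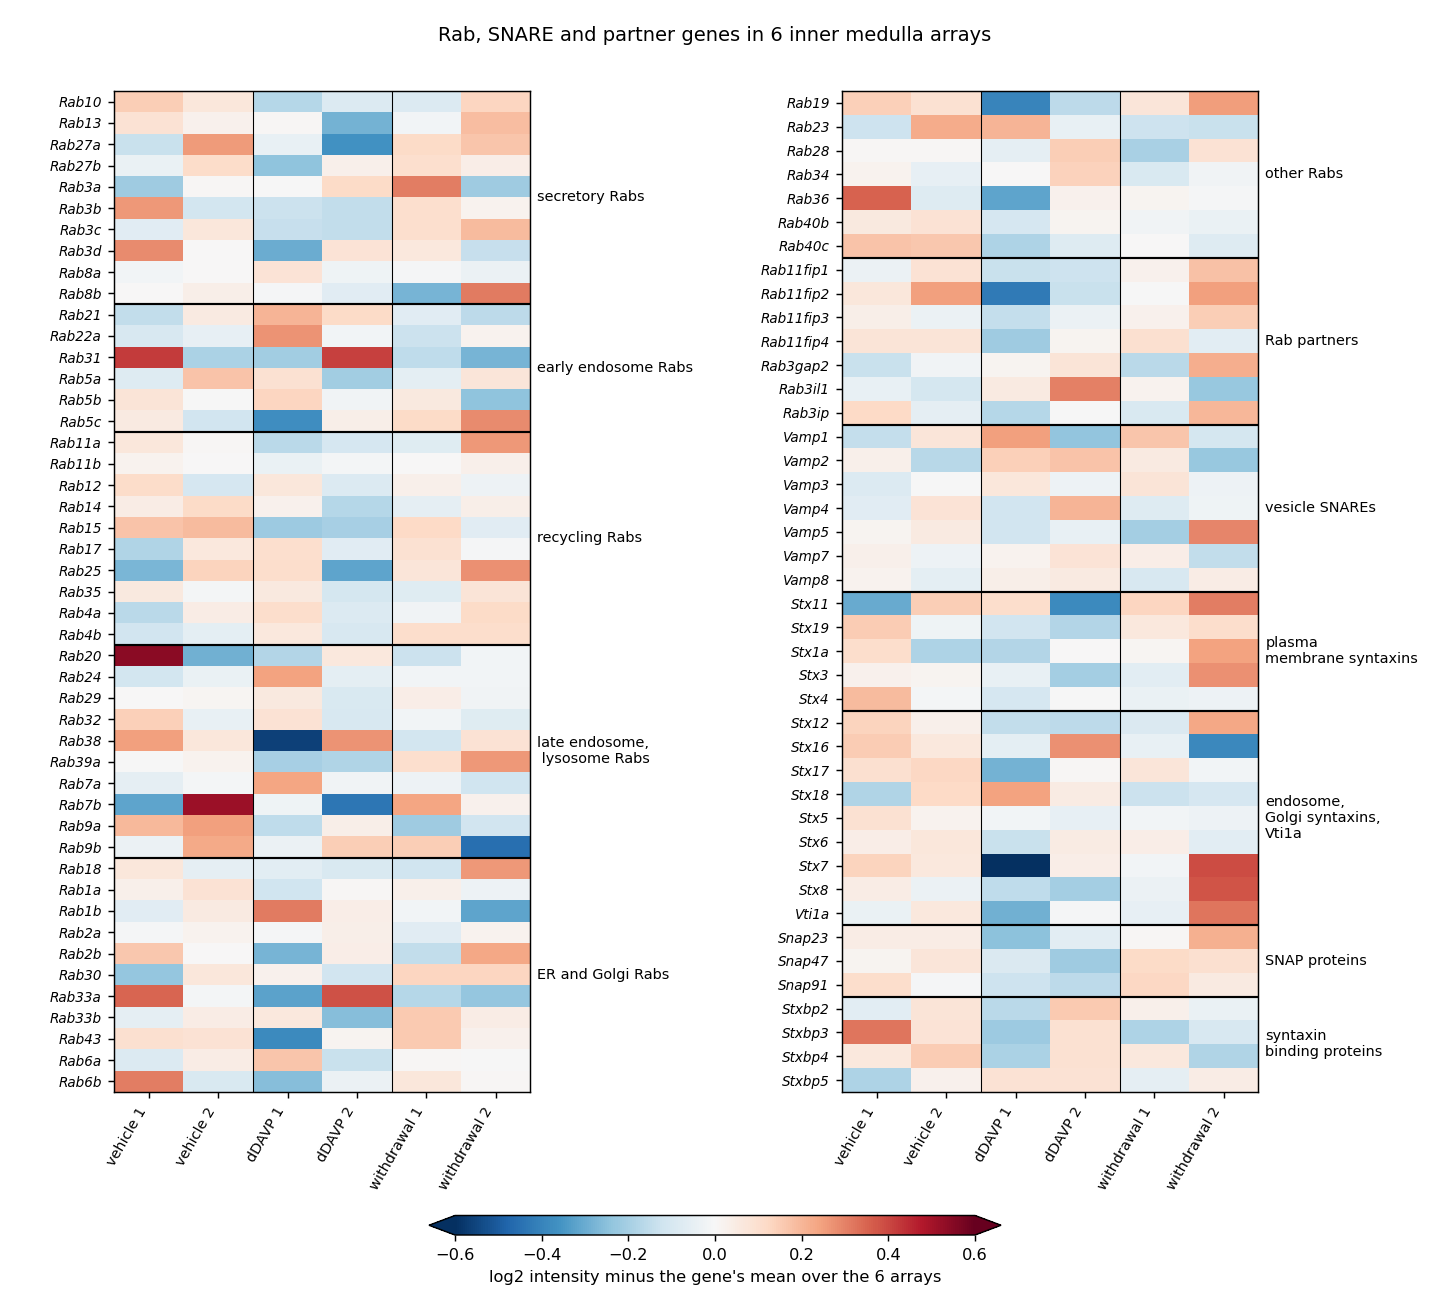
The log2 level of each of the 89 members on the 6 arrays, as the difference from that member's mean (colour, in log2 units), with members in rows grouped by role and arrays in columns. Vehicle replicate 1 and dDAVP replicate 2 lie together below the other 4 arrays in 13 rows and above them in 10.

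The route that carries Aqp2 to the membrane comes first. Vamp2, the vesicle SNARE found on Aqp2 vesicles, was at 9.69 and 9.49 log2 units in vehicle, 9.80 and 9.83 under dDAVP, and 9.71 and 9.43 after withdrawal. Both dDAVP arrays were above the other 4, as for 4.49% of members and 3.14% of all genes. The dDAVP minus vehicle difference was 0.23 ± 0.13 (SE, 95% interval -0.09 to 0.54, adjusted p = 0.552 in limma) and the withdrawal minus dDAVP difference was -0.25 ± 0.13. Vamp3, which serves recycling endosomes, and Vamp8, which serves late endosomes and apical exocytosis, kept within narrow ranges: 11.14 to 11.30 and 11.99 to 12.14 log2 units over the 6 arrays. Of the 7 vesicle SNAREs, 6 were above 0 for dDAVP against vehicle, beside 22.1% of all genes. Their median was 0.05 log2 units. It was 0.08 with cyclic loess, a scaling that removes shifts that depend on level, and 0.17 with each array's median subtracted. Arrays did not overlap between the 2 groups for 3 of 7, beside 45.4% of all genes.

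Snap23, the SNAP protein of epithelial cells, was at 10.57 on both vehicle arrays, 10.28 and 10.46 under dDAVP, and 10.53 and 10.74 after withdrawal. Both dDAVP arrays lay below the other 4, as for 19.1% of members and 33.6% of all genes. The differences were -0.20 ± 0.12 and 0.26 ± 0.12 (SE), the first with a 95% interval of -0.49 to 0.08. Stx4, a plasma membrane syntaxin, was at 11.53 and 11.33 in vehicle, 11.24 and 11.34 under dDAVP, and 11.30 and 11.31 after withdrawal. Stx3, an apical syntaxin, was at 8.16 and 8.15, 8.09 and 7.93, and 8.07 and 8.41 in the same order. Vehicle and dDAVP arrays overlapped for Stx4 and did not for Stx3. All 5 plasma membrane syntaxins were below 0 for dDAVP against vehicle, with a median of -0.14, beside -0.11 for all genes, of which 22.1% were above 0. All 5 were above 0 for withdrawal against dDAVP, with a median of 0.23, beside 0.14 for all genes, of which 74.9% were above 0. The 3 SNAP symbols were below 0 in the first comparison, at a median of -0.19, and above 0 in the second, at 0.25. With cyclic loess the medians were -0.04 and 0.07 for the syntaxins, with 2 of 5 above 0 in the first comparison, and -0.12 and 0.19 for the SNAP symbols. With array medians subtracted they were -0.02 and 0.11, and -0.07 and 0.13.

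Of the 4 syntaxin binding proteins, 1 was above 0 and 3 were below for dDAVP against vehicle, beside 22.1% of all genes above 0. Their median of -0.08 turned to 0.01 with cyclic loess and 0.04 with array medians subtracted. Stxbp3, a partner of Stx4, was at 10.87 and 10.63 in vehicle, 10.33 and 10.64 under dDAVP, and 10.36 and 10.45 after withdrawal. The withdrawal minus vehicle difference was -0.35 ± 0.14 log2 units (SE, 95% interval -0.69 to 0.00, adjusted p = 0.995 in limma). It was among the 2 members at an unadjusted p under 0.05 in that comparison, and its vehicle arrays did not overlap those after withdrawal. Stxbp2, a partner of Stx3, lay between 8.90 and 9.22 over the 6 arrays, with its groups overlapping.

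**Figure D2:**
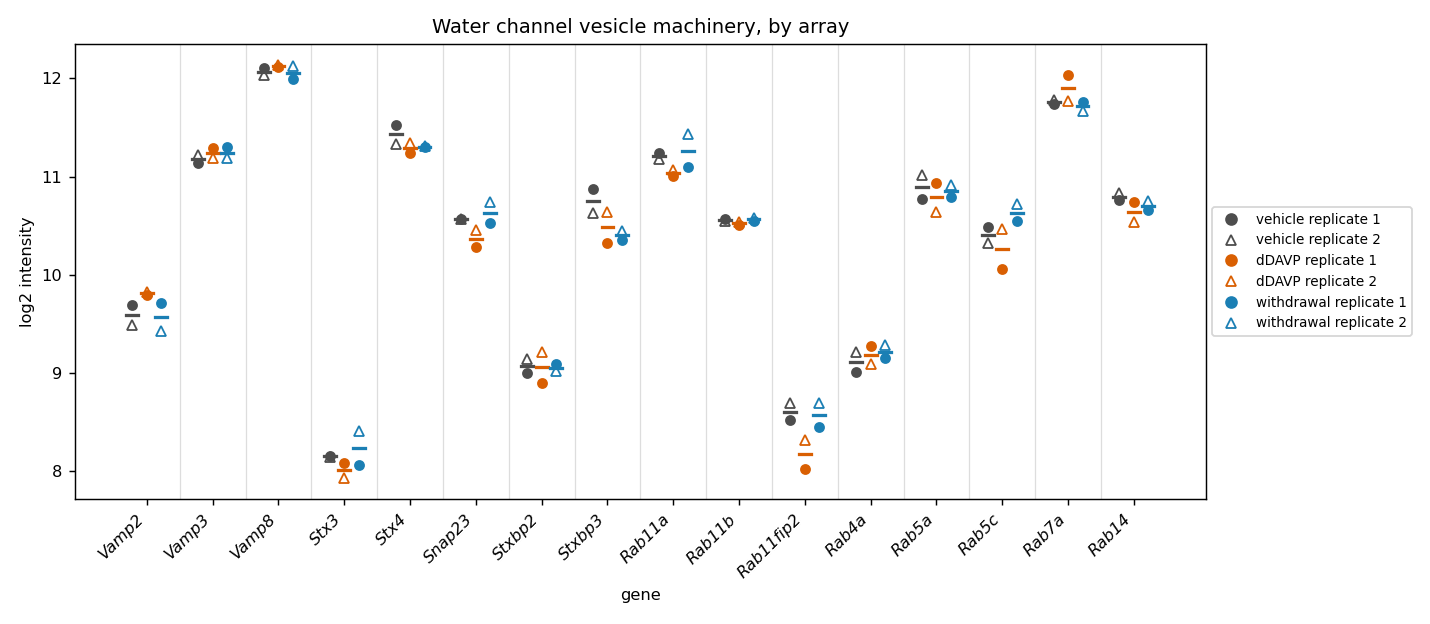
Log2 levels on the 6 arrays of members with a place in the Aqp2 route or the general exocytic and endosomal route, one point per array (filled circle replicate 1, open triangle replicate 2) with bars at the group means. Vamp2 lies highest under dDAVP (9.80 and 9.83), while Snap23 (10.28 and 10.46) and Rab11fip2 (8.03 and 8.32) lie lowest there.

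Recycling from endosomes depends on Rab11 and its adaptors. Rab11a was at 11.24 and 11.18 log2 units in vehicle, 11.01 and 11.07 under dDAVP, and 11.10 and 11.43 after withdrawal, and Rab11b was between 10.51 and 10.58 on every array. Rab11fip2, an adaptor that ties Rab11 to a myosin motor, was at 8.52 and 8.70 in vehicle, 8.03 and 8.32 under dDAVP, and 8.45 and 8.70 after withdrawal. Both dDAVP arrays were below the other 4 for all 3 genes, as for 19.1% of members and 33.6% of all genes. With array medians subtracted this held for Rab11fip2 only, and for Rab11b both dDAVP arrays were then above the other 4. The Rab11fip2 difference was -0.43 ± 0.15 for dDAVP against vehicle (SE, 95% interval -0.79 to -0.07, 1.35-fold, adjusted p = 0.549 in limma), the largest of the 89 in that comparison. It was 0.40 ± 0.15 for withdrawal against dDAVP (adjusted p = 0.26 in limma). Those 2 comparisons share the dDAVP arrays, so the return is not separate evidence. Of the 10 recycling Rabs, 7 were below 0 in the first comparison and all 10 were at or above 0 in the second. Among all genes 22.1% and 74.9% were above 0 in these comparisons. The recycling Rab medians were -0.04 and 0.05, beside -0.11 and 0.14 for all genes. With array medians subtracted the recycling Rab medians turned to 0.08 and -0.07.

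Rab15, an endosomal Rab of recycling, had the smallest unadjusted p of the 89 for dDAVP against vehicle. It was at 8.68 and 8.70 in vehicle, 8.29 and 8.31 under dDAVP, and 8.63 and 8.44 after withdrawal. The dDAVP arrays were below the other 4, as for 33.6% of all genes. The difference was -0.39 ± 0.10 (SE, 1.31-fold, adjusted p = 0.549 in limma). Rab19, one of the less studied Rabs, was at 8.17 and 8.12, 7.63 and 7.87, and 8.10 and 8.28 in the same order. Its difference was -0.39 ± 0.12 for dDAVP against vehicle and 0.44 ± 0.12 for withdrawal against dDAVP. Rab40c, a Rab with a SOCS box that binds a ubiquitin ligase, was at 8.43 and 8.42, 8.07 and 8.18, and 8.26 and 8.18.

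The remaining endosomal and secretory Rabs with a place in this route gave small or scattered differences. Rab27a, a Rab of secretory granules, was at 8.87 and 9.26 in vehicle, 8.96 and 8.64 under dDAVP, and 9.12 and 9.17 after withdrawal. Rab3d, another granule Rab, was at 8.64 and 8.36, 8.06 and 8.44, and 8.42 and 8.22 in the same order. Vehicle and dDAVP arrays overlapped in both. Of the 10 secretory Rabs, 8 were below 0 for dDAVP against vehicle, while 22.1% of all genes were above 0. Their median was -0.17, beside -0.11 for all genes, and -0.03 with cyclic loess. Rab8a, which brings vesicles from the Golgi to the surface, was steady, between 10.78 and 10.90, while Rab3ip, its exchange factor, averaged 10.20 ± 0.12 in vehicle, 10.08 ± 0.12 under dDAVP and 10.23 ± 0.21 after withdrawal (SD, n = 2).

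Entry and sorting are run by Rab5 and Rab7. Rab5a, of early endosomes, was at 10.77 and 11.02 in vehicle, 10.94 and 10.64 under dDAVP, and 10.79 and 10.92 after withdrawal. Rab5c, its close relative, was at 10.49 and 10.32, 10.06 and 10.47, and 10.55 and 10.72, a withdrawal minus dDAVP difference of 0.37 ± 0.16 (SE, adjusted p = 0.267 in limma). Rab7a, of late endosomes, was at 11.74 and 11.78, 12.03 and 11.77, and 11.76 and 11.67. None of the 3 kept dDAVP apart from both other groups. Rab4a, of fast recycling, lay between 9.01 and 9.29 and Rab14, of Golgi and endosome traffic, between 10.54 and 10.83. Stx12, an endosomal syntaxin, was at 9.83 and 9.73, 9.55 and 9.54, and 9.61 and 9.93. Its dDAVP arrays were both the lowest, as for 33.6% of all genes.

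The promoters of members were searched because V2 receptor signalling acts through cAMP. RefSeq (GRCr8) gave a promoter from 250 bases before to 50 after the start for 74 of the 89 members. TGACGTCA, the cAMP response element, was in 3 of 74 (4.05%) on either strand and in 2% of 27457 genes. Those 27457 were not limited to the 14168 genes read from the arrays, so the sets compared are unlike. Its core TGACG, which lies inside the longer motif, was in 35.1% of the members' promoters and in 23% of all. The E-box CACGTG was in 9.46% and 7.08%. The 3 members with the full element were Rab11fip3, Rab25 and Vamp1. Of the members with a small unadjusted p for dDAVP against vehicle, Rab19 and Rab40c held the core. Rab15, with the smallest, held none of these motifs, Rab9a was not among the members with a match, and Rab11fip2 had no promoter entry. Below are the 250 bases before the start of the 3 with the full element, and of Rab19 as an example with the core alone. Capitals mark TGACGTCA, or TGACG and its reverse complement CGTCA. The sequences are 5′ to 3′ on the gene's strand.
Rab25: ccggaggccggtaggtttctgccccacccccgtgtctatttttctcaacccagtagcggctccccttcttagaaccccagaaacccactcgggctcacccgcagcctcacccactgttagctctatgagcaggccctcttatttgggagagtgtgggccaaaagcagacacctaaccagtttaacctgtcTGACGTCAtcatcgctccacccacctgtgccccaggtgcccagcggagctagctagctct
Rab11fip3: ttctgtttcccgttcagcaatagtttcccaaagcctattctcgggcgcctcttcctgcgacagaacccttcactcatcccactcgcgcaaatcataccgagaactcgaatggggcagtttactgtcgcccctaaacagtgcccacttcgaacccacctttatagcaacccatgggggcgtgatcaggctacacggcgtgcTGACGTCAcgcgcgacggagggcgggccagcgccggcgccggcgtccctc
Vamp1: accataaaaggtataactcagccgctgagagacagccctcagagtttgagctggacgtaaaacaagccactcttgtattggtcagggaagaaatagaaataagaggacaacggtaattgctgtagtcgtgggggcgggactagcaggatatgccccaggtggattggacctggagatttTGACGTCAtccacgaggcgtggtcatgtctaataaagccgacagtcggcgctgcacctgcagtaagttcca
Rab19: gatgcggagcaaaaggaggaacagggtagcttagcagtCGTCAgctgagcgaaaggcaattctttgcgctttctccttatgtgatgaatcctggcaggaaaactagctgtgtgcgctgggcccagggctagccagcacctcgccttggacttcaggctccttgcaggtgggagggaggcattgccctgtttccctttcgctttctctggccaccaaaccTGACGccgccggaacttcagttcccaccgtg
They lie at chr2:176304222-176304471 (minus strand), chr10:15591174-15591423 (minus), chr4:159698644-159698893 (plus) and chr4:69123712-69123961 (plus), all in GRCr8. The element begins 60, 50 and 71 bases before the start in Rab25, Rab11fip3 and Vamp1, and in Rab19 the core begins 31 bases before it and its reverse complement 212. A match is a run of letters, not a shown binding site.

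Between dDAVP and vehicle the arrays overlapped for the 3 members with the element. Rab25, an epithelial Rab of apical recycling, was at 10.18 and 10.59 in vehicle, 10.56 and 10.14 under dDAVP, and 10.53 and 10.73 after withdrawal, a difference of -0.04 ± 0.20 for dDAVP against vehicle (SE). Rab11fip3, an adaptor of Rab11 in cell division and recycling, was at 7.72 and 7.65, 7.54 and 7.65, and 7.71 and 7.83, and its withdrawal arrays lay above those of dDAVP. Vamp1, a vesicle SNARE best known from nerve, was at 9.94 and 10.16, 10.33 and 9.85, and 10.25 and 9.98. For Rab25 and Vamp1 the lower arrays were vehicle replicate 1 and dDAVP replicate 2.

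Over all members, dDAVP against vehicle gave a median of -0.10 log2 units beside -0.11 for all genes. There were 27 of 89 members above 0 (30.3%), beside 22.1% of all genes. At an unadjusted p under 0.05, 0 members were higher (0.572% of all genes) and 5 were lower (5.62%, beside 6.85%): Rab15, Rab19, Rab40c, Rab11fip2 and Rab9a. With single arrays left out, the difference of Rab15 ran from -0.40 to -0.38 and that of Rab19 from -0.51 to -0.27. Rab40c ran from -0.36 to -0.24, Rab11fip2 from -0.58 to -0.28 and Rab9a from -0.38 to -0.19. Arrays of the 2 groups did not overlap for 38 members (42.7%), beside 45.4% of all genes. The 95% interval lay within 1.5-fold for 72 members (80.9%), beside 80.2%. Each of these shares was near that of all genes, apart from the share above 0, which depended on the scaling. With cyclic loess 40 were above 0 (44.9%, beside 49.8% of all genes) and 49 below, and the median was -0.01. The same 5 members were then lower (5.62%, beside 1.47% of all genes), with 3 higher (3.37%, beside 1.78%), Rab3il1, Rab21 and Stxbp5. With array medians subtracted 49 were above 0 (55.1%, beside 50.7% of all genes). The counts were then 4 higher and 1 lower (4.49% and 1.12%, beside 2.63% and 0.868%). Without dDAVP replicate 1 the members' median was -0.06, beside -0.09 for all genes, and without dDAVP replicate 2 it was -0.12, beside -0.15. Without vehicle replicate 1 and dDAVP replicate 2 together it was -0.09, beside -0.11.

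Of the 4 higher members with the smallest unadjusted p, Vamp2 is described above. Rab3il1, an exchange factor that activates secretory Rabs, was at 7.31 and 7.25 in vehicle, 7.41 and 7.66 under dDAVP, and 7.38 and 7.13 after withdrawal. Rab21, a Rab of early endosomes and integrin traffic, averaged 10.84 ± 0.14 in vehicle, 11.05 ± 0.06 under dDAVP and 10.77 ± 0.07 after withdrawal (SD, n = 2). Rab22a, also of early endosomes, was at 9.79 and 9.84, 10.16 and 9.87, and 9.76 and 9.91. In these 3 the dDAVP arrays did not overlap those of vehicle, and the differences were 0.25 ± 0.13, 0.21 ± 0.11 and 0.21 ± 0.13 (SE). Rab9a, which returns receptors from late endosomes to the Golgi, was lower, at 11.30 and 11.35, 10.95 and 11.14, and 10.89 and 10.99.

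**Figure D3:**
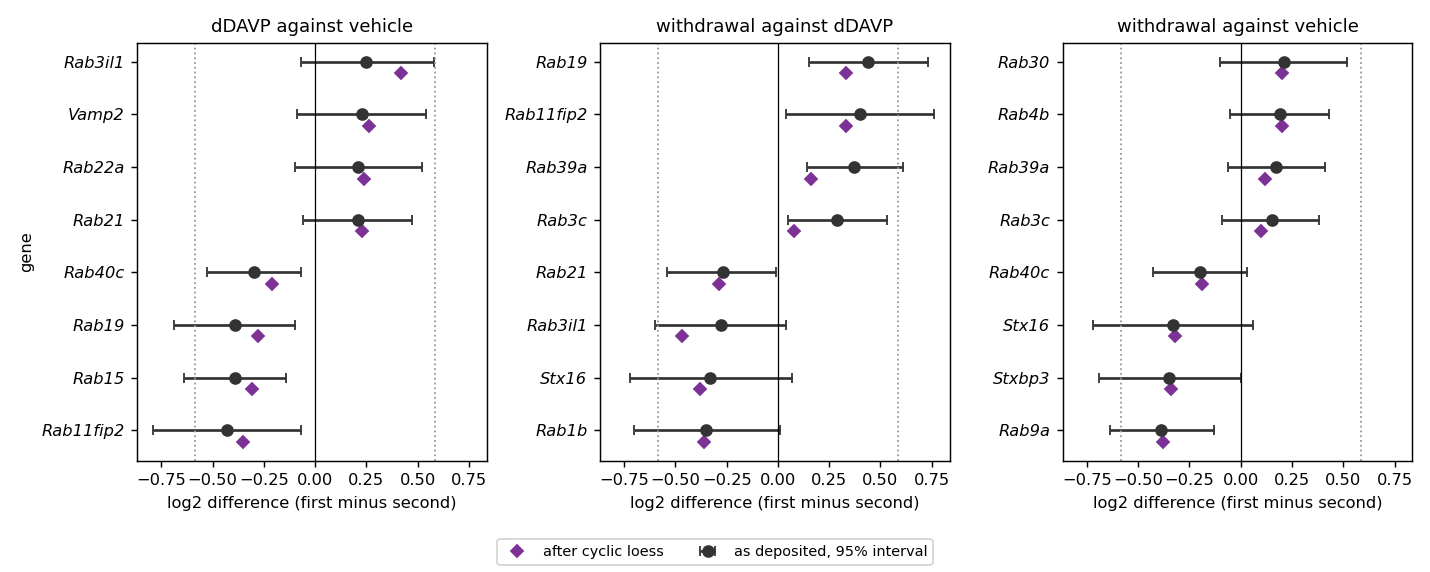
Log2 differences (first group minus second, horizontal axis) of the 4 higher and 4 lower members with the smallest unadjusted p in each of the 3 comparisons. Dots and bars are the fit with its 95% interval, diamonds the value with cyclic loess, and dotted lines mark 1.5-fold, which no dot reaches.

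Withdrawal against dDAVP gave a median of 0.06 for the members, beside 0.14 for all genes. There were 58 members above 0 (65.2%), beside 74.9%. At an unadjusted p under 0.05, 6 members were higher (6.74%, beside 17.3% of all genes): Rab39a, Rab19, Rab3c, Rab11fip2, Snap47 and Snap91. Their differences were 0.37, 0.44, 0.29, 0.40, 0.25 and 0.23 log2 units in that order. Without withdrawal replicate 2 they were 0.29, 0.35, 0.25, 0.28, 0.26 and 0.26. One lower member, Rab21, made 1.12% beside 1.64%. Arrays did not overlap for 36 (40.4%), beside 57.6%, and 69 (77.5%) had an interval within 1.5-fold, beside 74.3%. With cyclic loess 2 were higher and 2 lower (beside 3.19% and 3.32% of all genes), and 47 were above 0 (52.8%, beside 50.9%). With array medians subtracted 2 were higher and 7 lower (beside 2.58% and 6.35%), and 39 were above 0 (43.8%, beside 54.7%). Without withdrawal replicate 2 the members' median was 0.06, beside 0.13 for all genes, and without withdrawal replicate 1 it was 0.10, beside 0.15. Without dDAVP replicate 1 it was 0.05, beside 0.12, and without dDAVP replicate 2 it was 0.07, beside 0.17. Without vehicle replicate 1 and dDAVP replicate 2 together it was 0.07, beside 0.17.

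Among the 6 higher members, 3 were dim. Rab39a, a Rab of phagosomes and lysosomes, was at 6.35 and 6.37 in vehicle, 6.15 and 6.17 under dDAVP, and 6.45 and 6.61 after withdrawal, with no overlap between dDAVP and the other arrays. Rab3c, a secretory Rab, was at 6.63 and 6.77, 6.56 and 6.55, and 6.80 and 6.89. Rab39a, Rab3c, Snap91 and Stx19 were the members among the lowest 25% of all genes by level, and without the dim genes the counts were 2 higher and 0 lower. The share of all genes was not counted for that fit. Among the lower, Rab1b, a Rab of ER to Golgi traffic, averaged 10.31 ± 0.08 in vehicle, 10.50 ± 0.19 under dDAVP and 10.15 ± 0.21 after withdrawal (SD, n = 2), a difference of -0.35 ± 0.15 (SE, adjusted p = 0.265 in limma). Stx16, a syntaxin of the Golgi, was at 8.86 and 8.77, 8.65 and 8.98, and 8.66 and 8.32.

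Withdrawal against vehicle gave a median of -0.01 beside 0.03 for all genes. There were 41 members above 0 (46.1%), beside 59.5% of all genes. At an unadjusted p under 0.05, 0 were higher (0.642% of all genes) and 2 were lower (2.25%, beside 1.14%): Rab9a and Stxbp3. Arrays did not overlap for 21 members (23.6%), beside 30.7%. The interval lay within 1.5-fold for 75 members (84.3%), beside 82.9%. Rab9a was at -0.39 ± 0.11 (SE, 1.31-fold, adjusted p = 0.995 in limma), the largest of the 89. Rab4b, a Rab of fast recycling, was at 8.89 and 8.95 in vehicle, 9.07 and 8.91 under dDAVP, and 9.11 on both withdrawal arrays, which lay above the vehicle arrays.

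**Figure D4:**
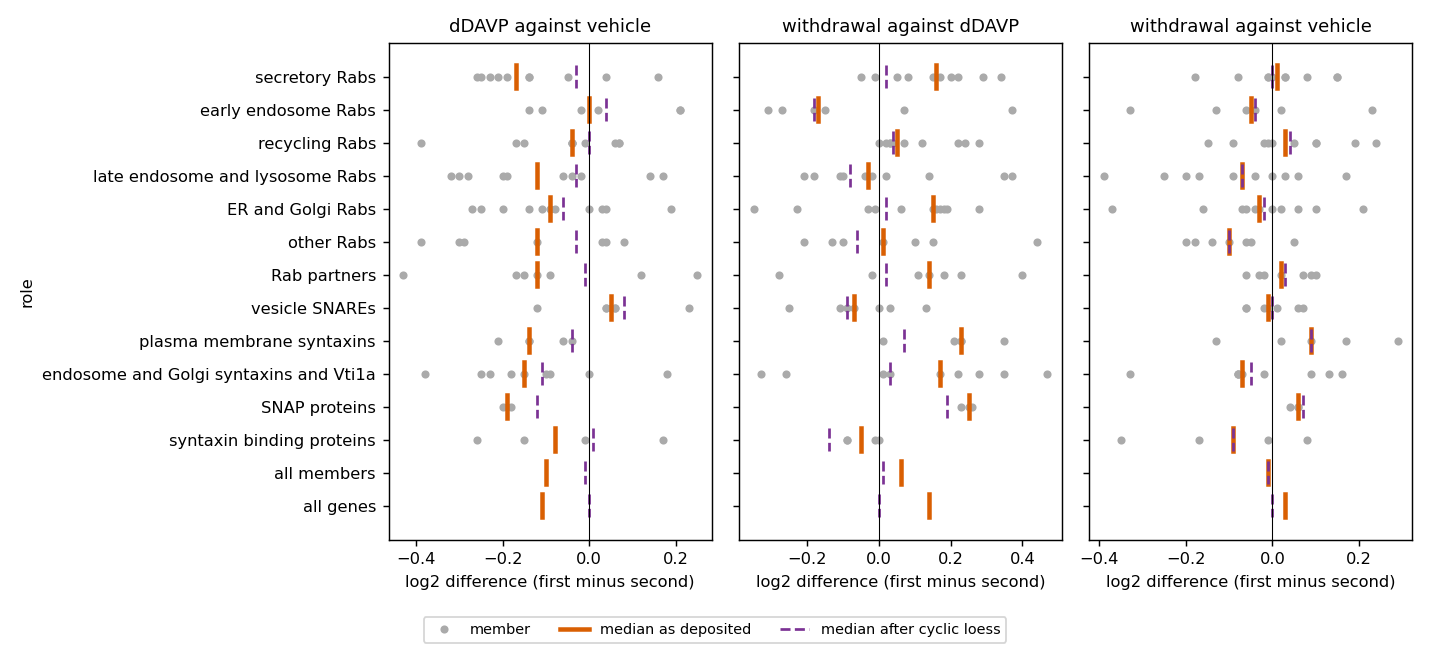
Log2 differences (first group minus second, horizontal axis) by role in the 3 comparisons, with a grey dot per member, an orange bar at the median and a purple dashed bar at the median with cyclic loess. The orange medians of the roles run from -0.19 to 0.25. For withdrawal against dDAVP they are highest for the SNAP symbols (0.25) and plasma membrane syntaxins (0.23), beside 0.14 for all genes. Other roles are above 0 there too, such as the endosome and Golgi syntaxins (0.17) and secretory Rabs (0.16). The early and late endosome Rabs, vesicle SNAREs and syntaxin binding proteins are below 0.

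Some members followed individual arrays more than groups. Vehicle replicate 1 and dDAVP replicate 2 were together below the other 4 arrays for 13 members (14.6%), beside 12.7% of all genes, and above them for 10 (11.2%), beside 10.9%. Rab31, a Rab of Golgi to endosome traffic, was at 9.32 and 8.71 in vehicle, 8.69 and 9.31 under dDAVP, and 8.75 and 8.62 after withdrawal. Rab33a, a Golgi Rab, was at 9.01 and 8.65, 8.34 and 9.04, and 8.49 and 8.43. Stx11, a syntaxin of immune cells, was at 7.65 and 8.10, 8.06 and 7.57, and 8.08 and 8.26. In each, those 2 arrays are the pair that stands out. The same arrays had the lowest summed intensity of the 3 smooth muscle markers, all above 0, at 3561 and 3227 beside 4147 to 4954 in the other 4. The 8 immune markers summed to 5639 and 5754 there and to 5817 to 6838 elsewhere, with none at 0. Their median deviation from each marker's mean was highest on vehicle replicate 1, at 0.24 log2 units. It was lowest on dDAVP replicate 2, at -0.06, beside -0.05 to 0.13 elsewhere. The deviation thus went against the low sum on vehicle replicate 1 only. Single immune markers split: Cd74 was highest on these 2 arrays, at 9.99 and 9.86 beside 8.74 to 9.39. Cd68 was lowest there, at 9.33 and 9.29 beside 10.12 to 10.39, and so was Lyz2, at 10.92 and 11.23 beside 11.31 to 11.63. The other immune markers did not set both arrays apart. The part of these cells in the member values was not tested.

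The spread of single arrays was wide for a few. Rab20, a Rab of endosomes and phagosomes, was at 9.45 on vehicle replicate 1 and between 8.62 and 8.97 on the other 5 arrays. Rab7b, which serves transport from endosomes to the Golgi, was at 6.53 and 7.36 in vehicle, 6.82 and 6.41 under dDAVP, and 7.08 and 6.87 after withdrawal. Rab38, of lysosome-related organelles, was at 8.86 and 8.68, 8.05 and 8.88, and 8.50 and 8.70. Stx7, a syntaxin of late endosomes, was at 10.48 and 10.41, 9.74 and 10.39, and 10.33 and 10.74. Its withdrawal minus dDAVP difference of 0.47 ± 0.23 (SE, 1.39-fold) was the largest of any member, and its dDAVP arrays had an SD of 0.46. Over all members the range across the 6 arrays ran from 0.07 to 1.00, with a median of 0.38 beside 0.37 for all genes. The members' median residual SD was 0.14, beside 0.11.

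**Figure D5:**
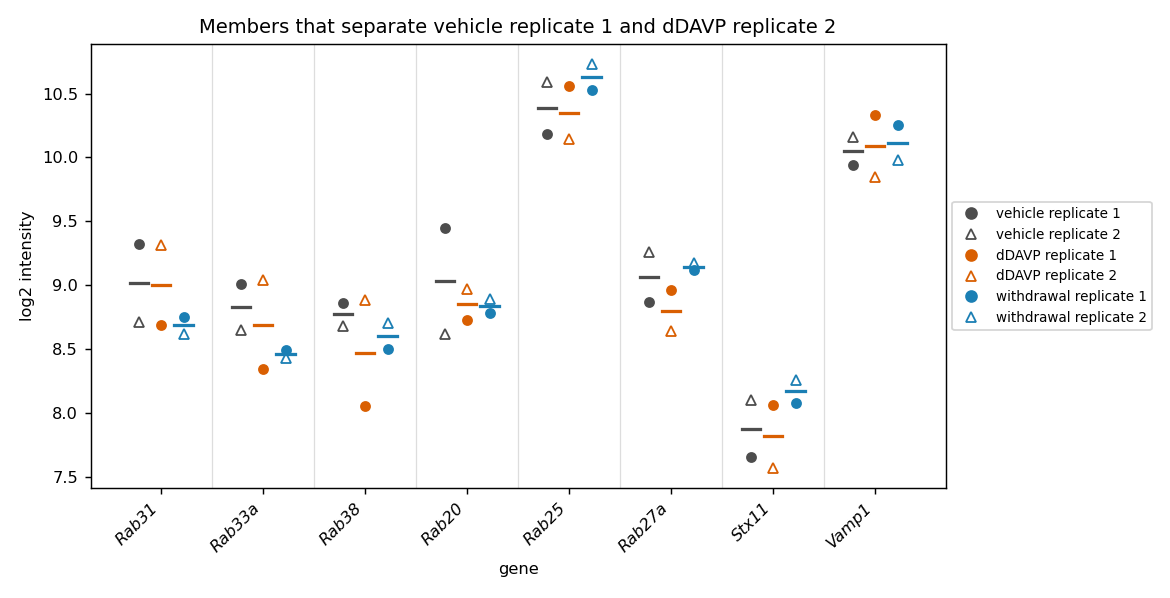
Log2 levels on the 6 arrays (vertical axis) of 8 members that set vehicle replicate 1 and dDAVP replicate 2 apart, one point per array with bars at the group means. Rab31 is at 9.32 and 9.31 on vehicle replicate 1 and dDAVP replicate 2 and at 8.62 to 8.75 on the other 4.

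Withdrawal replicate 2 was the highest of the 6 arrays for 29 members (32.6%), beside 28.1% of all genes. Stx8, a late endosomal syntaxin, was at 10.11 and 10.03 in vehicle, 9.91 and 9.86 under dDAVP, and 10.03 and 10.44 after withdrawal. Vti1a, a SNARE of the Golgi and endosomes, was at 9.17 and 9.27, 8.92 and 9.20, and 9.16 and 9.53. Rab8b, a secretory Rab, was at 10.09 and 10.12, 10.08 and 10.02, and 9.81 and 10.40. In each of the 3 the second withdrawal array was the highest, and Rab8b had the other withdrawal array as the lowest. The 6 measured of 7 intercalated cell markers, none at 0, summed to 3600 on the second withdrawal array and 3592 on vehicle replicate 1, beside 5339 to 6338 on the other 4. Their median deviation from each marker's mean was -0.13 and -0.40 log2 units on these 2 arrays, beside -0.05 to 0.35. Single markers differed: Slc4a1 and Atp6v1b1 were lowest on these 2 arrays, while Slc26a4 was highest on the second withdrawal array, at 6.83 beside 6.47 to 6.73. On that array Atp6v0d2 was at 9.76, above 9.47 and 9.56 under dDAVP. Atp6v1g3 was at 10.22 there, above 10.05 on dDAVP replicate 1. Rhbg was not low on vehicle replicate 1, at 10.74 beside 10.72 on vehicle replicate 2 and 10.73 on dDAVP replicate 1. The 5 endothelium markers, none at 0, summed to 5406 on that withdrawal array, beside 6099 to 6890. Their median deviation was -0.15 there and -0.16 on dDAVP replicate 1, beside -0.03 to 0.16 on the other 4. Kdr and Cdh5 were not lowest on that withdrawal array. The part of these cells in the member values was not tested.

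Both dDAVP arrays lay below the other 4 for 17 members (19.1%), beside 33.6% of all genes, and above for 4 (4.49%), beside 3.14%: Rab21, Rab3il1, Stxbp5 and Vamp2. The 17 included Rab11a, Rab11b, Rab11fip1 and Rab11fip2, with Snap23, Snap47, Stx8, Stx12 and Stx19. After cyclic loess 8 were below (8.99%, beside 8.21% of all genes), among them Rab11a, Rab11fip2, Snap23, Stx8 and Stx12, and 6 above (6.74%, beside 8.6%). After subtraction of array medians 3 were below (3.37%, beside 8.58%), Rab11fip2, Rab19 and Rab39a, and 16 above (18%, beside 10.6%). The 6 nerve markers, none at 0, also summed lowest under dDAVP, at 620 and 598 beside 703 to 806 on the other 4 arrays. They were dim, at 6.04 to 7.75 log2 units beside a limit of 6.83 for the lowest 25% of genes by level. A low place of both dDAVP arrays was shared by 33.6% of all genes. Nefm went the other way on dDAVP replicate 1, at 6.75 beside 6.70 on vehicle replicate 2. The part of these markers in the member values was not tested.

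More than 1 probe set was present for 8 members. Stx8 had 3, all with differences from -0.20 to -0.16 for dDAVP against vehicle and 0.28 to 0.35 for withdrawal against dDAVP. The other Snap23 probe set gave -0.19 and 0.38, beside -0.20 and 0.26. For Rab1a the probe sets differed in sign, at -0.11 and 0.05 for dDAVP against vehicle. The 2 probe sets of Stx1a held identical values, so they are 1 measurement. Close Rab relatives may share probe sequence, and this was not tested.

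The partners of this machinery outside the rule gave 0 called genes in each of 8 lists. The list of 9 exocyst subunits had a median of -0.04 for dDAVP against vehicle, which was 0.03 with cyclic loess, and Exoc4 had the smallest unadjusted p of it, at 8.52 and 8.48 in vehicle, 8.05 and 8.15 under dDAVP, and 8.26 and 8.22 after withdrawal. Of 21 measured Rab exchange factors and GTPase activating proteins, 1 lay above and 3 below with an unadjusted p under 0.05 in that comparison, beside 0.572% and 6.85% of all genes, with a median of -0.13 that was -0.03 with cyclic loess. Rabgap1l, an activating protein that turns Rabs off, was at -0.40 ± 0.10, and Dennd6a, an exchange factor, was at 0.27 ± 0.11 (SE). Of 22 myosins and Rab effectors, 5 were lower by the same measure, beside 6.85% of all genes, Mlph at -0.54 ± 0.21 and Ehd4 at -0.33 ± 0.10 among them. Their median was -0.16, and -0.06 with cyclic loess. Of the 14 water channel and receptor genes, 0 were higher and 0 lower there. In withdrawal against dDAVP Avpr2, the V2 receptor, was at -0.43 ± 0.16 and Adcy6, a cyclase it drives, at -0.26 ± 0.11, with adjusted p-values of 0.26 and 0.261 in limma. Avpr1a, the V1a receptor, was at 0.37 ± 0.15 (adjusted p = 0.262 in limma), so the list held 1 higher and 2 lower genes at an unadjusted p under 0.05, beside 17.3% and 1.64% of all genes.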

How the data were processed

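Inner medulla RNA (300 ng per array) was measured on 6 Affymetrix arrays, 2 in each of 3 groups. Per the submitters' processing notes RMA was used, and the table the authors deposited holds an intensity on a linear scale for each probe set. RMA's version and the build: not given in the sources used here. Its normalization between arrays can reduce a shift shared by most genes. Then the log2 of each intensity was taken, whereas the plan had assumed log2 values.

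Of 28524 probe sets, 14947 carried 1 symbol, 318 several and 13259 were not listed in the annotation, which gave 14168 genes and 89 members, each from the probe set with the highest mean. Names came from the array's annotation, and 14916 Entrez numbers were found in RefSeq GRCr8, which changed 0 symbols.

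limma 3.58.1 (R 4.3.3, lmFit and eBayes) fitted 1 mean per group over all 6 arrays, 3 residual and 3.21 prior degrees of freedom, two-sided, with Benjamini-Hochberg adjustment over all genes of a comparison. The fit was tested on simulated data with noise drawn separately for each gene and array. Those data held no level shifts between arrays, and their planted changes were larger than any member's difference. That test therefore does not cover the array differences described above. The number of arrays limits the precision. Differences are given ± the moderated standard error. Members, lists and the rule for the genes named (a fixed set of route genes, the 4 higher and 4 lower members of smallest unadjusted p in each comparison, the 5 of largest range, and the 2 smallest of each list) were chosen with earlier results of these data known. Detection calls and scan dates were not used here, so batches were not looked for. Alternatives tried were 2 scalings, a dim filter, the mean of probe sets, a replicate block, a trended prior and arrays left out. Protein comparison of paralogs was not run.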

Additional observations from a re-analysis of the deposited data

How the results depend on the processing

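The count of called members was 0 in every comparison and under every alternative run. The members' median for dDAVP against vehicle, -0.10, was 0.02 with array medians subtracted and -0.01 with cyclic loess, and leaving out single arrays moved it between -0.12 and -0.06. For withdrawal against dDAVP, 0.06 as reported, array medians subtracted gave -0.07, cyclic loess 0.01, and single arrays left out 0.05 to 0.10. For withdrawal against vehicle, -0.01 as reported, the alternatives stayed between -0.04 and 0. The sign of dDAVP against vehicle differed for 22 of 89 members with array medians subtracted and for 13 with cyclic loess, and of withdrawal against dDAVP for 19 and 11, none of them members with an unadjusted p under 0.05. Deviations of same-numbered arrays correlated over genes at -0.62, -0.11 and 0 in the 3 comparisons. These values cannot show whether same-numbered arrays were handled together. With 2 arrays a group, the -0.62 also means that vehicle replicate 1 and dDAVP replicate 2 deviated alike. With the replicate block the count of called members was 0. At an unadjusted p under 0.05 it gave 0 higher and 5 lower members, 4 and 0, and 0 and 1. The crossed pairing, chosen after seeing the data, gave 1 and 6, 9 and 3, and 1 and 3. Shares of all genes were not counted for the block and crossed fits, so these counts have no background beside them. With 2 arrays a group, an array left out leaves 1 whose spread is assumed to be that of the other groups. Protein comparison of paralogs was planned and not run, as no protein table was given.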
